A study of Mus musculus with 8 samples.

Results

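Zbtb7b, the gene that encodes the zinc finger transcription factor Th-POK, lies in a crowded stretch of mouse chromosome 3. The genes described here are 10 protein-coding genes close to it, namely Efna1, Efna4, Adam15, Dcst1 and Dcst2 on one side and Lenep, Flad1, Cks1b, Shc1 and Pygo2 on the other. They were chosen by position, and a probe was taken as theirs where the transcript accession of the array design maps to the gene symbol. Of the 10 genes, 9 had at least 1 probe, with 13 probes in all, out of 18749 genes with a probe on the array. Dcst2, the nearest gene on its side, had no matched probe and has no value here. All 9 genes with a probe were among the 14135 genes tested. These values show how RNA of genes beside a knocked-out locus differed between knockout and wild-type glands.

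The glands were the No. 4 pair of females at lactation day 1, the first day of milk secretion, and 1 array was run per dam. There were 4 dams of wild-type genotype (WT) and 4 with a knockout of Th-POK (KO). Both genotypes carried the C57/Bl6 strain background and were age matched, and nothing but the Th-POK knockout differs between them in the labels. The knockout was not limited to the mammary epithelium by any promoter or Cre named in the sources used here, nor do those give the structure of the knockout allele, the number of backcross generations, or the animals' age at sampling. All 4 WT arrays shared 1 slide and all 4 KO arrays another, so genotype and slide cannot be told apart.

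The genes have little in common beyond their place. Efna1 and Efna4 encode ephrin-A ligands, membrane-anchored signals read by Eph receptors on neighbouring cells, and Adam15 encodes a membrane disintegrin and metalloprotease. Dcst1 and Dcst2 encode proteins of the DC-STAMP domain family, best known from sperm. Flad1 encodes FAD synthase, the last step from riboflavin to the cofactor FAD. Cks1b encodes a small subunit of cyclin-dependent kinases that also helps the SCF ubiquitin ligase recognise the inhibitor p27. Shc1 encodes an adaptor of receptor tyrosine kinases, Pygo2 a nuclear co-factor of Wnt signalling, and Lenep a small protein named for the lens epithelium.

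In gene order, with Zbtb7b at 0, Dcst2 is at -1, Dcst1 at -2, Adam15 at -3, Efna4 at -4 and Efna1 at -6. On the other side Lenep is at 1, Flad1 at 2, Cks1b at 3, Shc1 at 4 and Pygo2 at 5. Efna3, at -5, is not among the 10 and had no matched probe either. Zbtb7b is read from the minus strand, as are Lenep, Flad1, Cks1b, Dcst1, Adam15, Efna4 and Efna1, while Dcst2, Shc1 and Pygo2 are read from the plus strand. Dcst1 with Dcst2, and Cks1b with Shc1, are pairs read away from each other.

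The sequences in front of Dcst1, Flad1 and Cks1b are shown because Dcst1 and Cks1b share theirs with a divergent neighbour and Flad1 and Cks1b share a motif, and that of Efna4 is shown for comparison. They are RefSeq sequences of build GRCm38.p6, read 5′ to 3′ on the minus strand, and capitals mark the letters CCAAT or their reverse complement. The first line holds the whole of the 65 bases between the first bases of Dcst1 and Dcst2 (chr3:89365254-89365318). The others hold the 250 bases before the first base of Flad1 (chr3:89411882-89412131), of Cks1b (chr3:89418292-89418541) and of Efna4 (chr3:89338029-89338278).
Dcst1 to Dcst2: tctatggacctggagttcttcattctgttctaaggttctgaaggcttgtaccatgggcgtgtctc
Flad1: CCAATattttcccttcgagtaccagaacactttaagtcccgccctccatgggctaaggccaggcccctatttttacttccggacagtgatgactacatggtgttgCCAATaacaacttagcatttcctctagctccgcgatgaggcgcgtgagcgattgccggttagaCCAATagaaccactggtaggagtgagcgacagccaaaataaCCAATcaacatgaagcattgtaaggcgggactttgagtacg
Cks1b: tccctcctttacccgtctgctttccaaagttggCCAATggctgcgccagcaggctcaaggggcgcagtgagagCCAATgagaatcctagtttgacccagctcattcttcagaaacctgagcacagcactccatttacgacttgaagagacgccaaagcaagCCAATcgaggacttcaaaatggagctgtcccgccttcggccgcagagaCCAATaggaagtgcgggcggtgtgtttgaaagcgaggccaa
Efna4: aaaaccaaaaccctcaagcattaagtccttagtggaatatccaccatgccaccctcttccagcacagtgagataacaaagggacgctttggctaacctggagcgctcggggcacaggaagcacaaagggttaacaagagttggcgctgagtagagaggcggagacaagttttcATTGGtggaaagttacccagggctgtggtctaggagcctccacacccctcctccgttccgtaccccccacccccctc
The 250 bases before Flad1 held 4 copies of CCAAT, searched on both strands, and those before Cks1b also held 4. Of 32851 promoter windows of that length in the RefSeq table, 33.8% held at least 1 copy and 0.840% held at least 4. The Cks1b copies are also in front of the Shc1 start nearest to Cks1b, since 259 bases lie between the first bases of this pair. The same 4 copies therefore lie within 250 bases of both of these starts. A further Shc1 start, at chr3:89421621, held 2 copies in the 250 bases before it. Efna4 held 1 copy. Neither the letters CCAAT nor the GC box GGGCGG nor the TATA box TATAAA was found in the 65 bases between Dcst1 and Dcst2. In the 65 bases next to each start, 12.0% of all promoters held CCAAT, 19.6% held GGGCGG and 4.18% held TATAAA.

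Zbtb7b itself served as the check of the labels. Its log2 quantile-normalized intensity, the scale of every level below, was 9.90, 10.42, 10.13 and 10.23 in WT1 to WT4 and 1.55, 1.56, 1.65 and 1.60 in KO1 to KO4. The KO arrays were all far below the WT arrays, and in none of them did the probe stand well above background. The difference was at least 81.5-fold (limma adjusted p = 5.70e-09). Each of the 13 probes of the neighbouring genes was well above background on all 8 arrays and none was saturated. As a check of tissue, all 6 milk protein genes listed were measured, with a summed log2 level of 20.15 to 20.24 in WT and 20.19 to 20.34 in KO. Here and below, a summed log2 level is the log2 of the summed linear intensities of a list's tested genes. The brightest genes therefore weigh most in it.

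Of the 9 genes tested, 3 passed the threshold of an adjusted p under 0.05. Dcst1 was higher in KO, and Flad1 and Lenep were lower. Over all 14135 genes tested, 16.5% passed, 7.53% higher and 8.94% lower in KO. The KO and WT values did not overlap for 6 of the 9 genes, the same 3 together with Efna1, Efna4 and Cks1b, against 24.0% of all genes. The median difference of the 9 genes was -0.07 on the log2 scale, beside -0.02 over all genes, and the median size of the difference was 0.47 beside 0.27. With the replicate number as a block, 5 of the 9 passed, the same 3 with Efna1 and Cks1b, when 19.6% of all genes did. Without KO3 only Dcst1 passed, and without WT1 6 of the 9 passed, when 3.64% and 21.7% of all genes did.

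**Figure D1:**
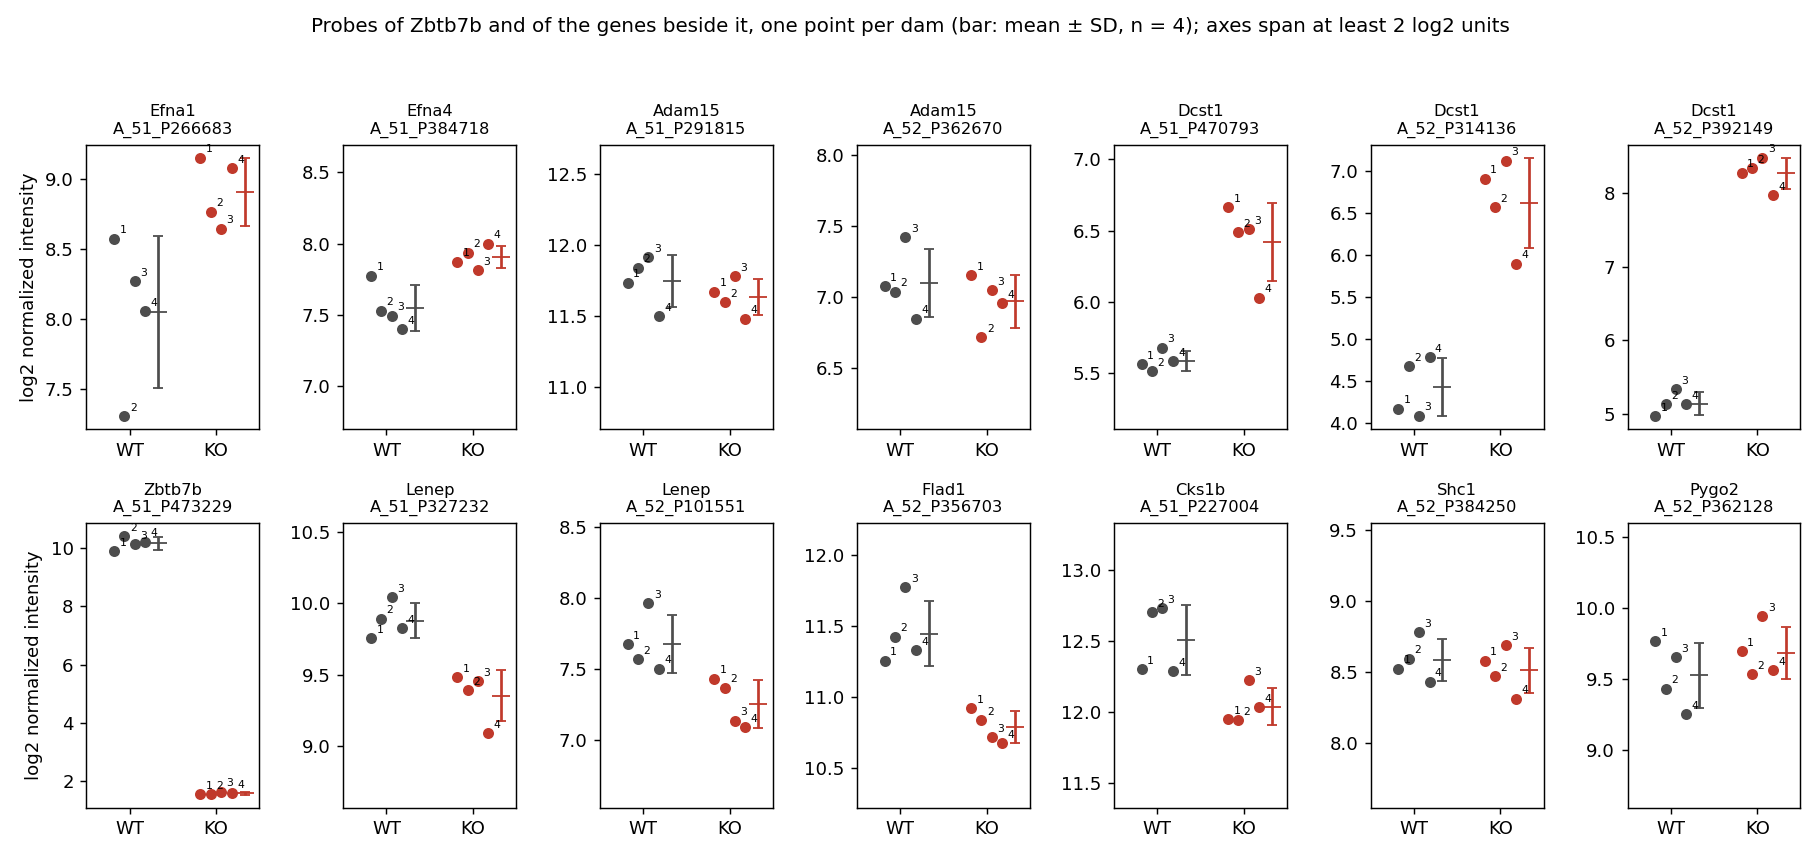
Log2 normalized intensity (vertical axis, with its own range for each probe) of Zbtb7b and of the 13 probes of the genes beside it, in WT (grey) and KO (red) dams. Points are single dams numbered by replicate and bars are mean ± SD (n = 4). The 3 Dcst1 probes lie higher in KO, and the Lenep, Flad1 and Cks1b probes lie lower, with no overlap.

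Dcst1, a membrane protein of sperm, showed the largest difference of the 9 genes. On its brightest probe (A_52_P392149) the log2 intensity was 4.96, 5.12, 5.33 and 5.13 in WT1 to WT4 and 8.28, 8.34, 8.48 and 7.97 in KO1 to KO4. The lowest KO array stood above the highest WT array by several times the range within either genotype. The difference was 3.14 on the log2 scale (95% interval 2.82 to 3.45), or 8.79-fold, with an adjusted p of 2.58e-05 in limma. By size of p it ranked 3 among the 14135 genes, and by increase it ranked 21. The probe was taken as the brightest over all 8 arrays, so its KO values had a part in the choice. It also had the largest difference of the 3 probes, and the fold and both ranks rest on it.

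The other Dcst1 probes gave the same direction and smaller sizes, although all 3 stand for the same transcript. Probe A_52_P314136 read 4.17, 4.68, 4.09 and 4.78 in WT and 6.91, 6.57, 7.12 and 5.89 in KO. The genotypes did not overlap, and the difference was 2.19 (95% interval 1.56 to 2.82; adjusted p = 0.00596 in limma over 27651 probes, of which 14.5% passed). Probe A_51_P470793 read 5.56, 5.51, 5.68 and 5.58 in WT and 6.66, 6.49, 6.51 and 6.03 in KO. Again no values overlapped, and the difference was 0.84 (95% interval 0.51 to 1.17; adjusted p = 0.0138 in limma). KO4 was the lowest KO array on every Dcst1 probe. The average of the 3 probes differed by 2.06, and a background correction on the median signal of the brightest probe gave 1.96, so the size of the rise is less certain than its direction.

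Genes typical of testis germ cells were read beside Dcst1. Of 8 listed, 5 passed the filter on dim probes, and Izumo1, Odf1 and Akap4 did not. Spaca6, a sperm protein of fertilization, was higher in KO by 0.99 (adjusted p = 0.0377 in limma) and Prm2, a protamine, was lower by a log2 difference of -0.48 (adjusted p = 0.0403 in limma). The methods' t-test called 0 of the 5. Over all genes tested, limma called 7.53% higher and 8.94% lower, and the methods' t-test called 9.83%. The summed log2 level of the 5 genes was 8.59 to 9.01 in WT and 8.37 to 8.71 in KO. Of the family members elsewhere in the genome, Ocstamp, which acts in osteoclast fusion, fell by 0.52 on the log2 scale (adjusted p = 0.0311 in limma). Dcstamp, its partner in cell fusion, differed by -0.25 (adjusted p = 0.628 in limma).

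The 5 genes whose log2 intensity followed Dcst1 most closely over the 8 arrays were Nxf7 (r = 0.992), Zfp105 (r = 0.991), Scgb1c1 (r = 0.988), As3mt (r = 0.986) and Chst1 (r = 0.985). None of them lies on chromosome 3. Each was higher in all KO than in all WT arrays, so these correlations mostly restate the step between genotypes. The highest WT value of Nxf7 was 1.55, in WT4. That lay below the lowest signal well above background on every WT array (2.93 to 4.03). Nxf7 therefore entered the test only through the KO arrays, and its WT values were not well above background.

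Flad1, the FAD synthase gene, was lower in KO. Its log2 intensity was 11.26, 11.43, 11.77 and 11.33 in WT1 to WT4 and 10.92, 10.84, 10.72 and 10.68 in KO1 to KO4. Every KO array was below every WT array. Flad1 fell by 0.66 on the log2 scale (95% interval -0.96 to -0.35; adjusted p = 0.0196 in limma), so that WT was 1.58-fold higher. Without KO3 the adjusted p was 0.0609.

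Lenep, between Zbtb7b and Flad1 and on the same strand as both, was lower in KO on both of its probes. Probe A_51_P327232 read 9.75, 9.89, 10.04 and 9.83 in WT and 9.48, 9.39, 9.45 and 9.09 in KO, with no overlap. It fell by 0.53 (95% interval -0.80 to -0.25; adjusted p = 0.0268 in limma), or 1.44-fold higher in WT. Probe A_52_P101551 read 7.67, 7.57, 7.96 and 7.50 in WT and 7.43, 7.37, 7.13 and 7.09 in KO. It too showed no overlap, and its difference of -0.42 had an adjusted p of 0.0713 in limma over all probes. The call on Lenep was the less firm, because the adjusted p was between 0.0533 and 0.0676 when WT2, WT3, KO1, KO2 or KO3 was left out.

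Other genes of flavin metabolism were read from a list of 12, made up of transporters and a kinase that act before FAD synthase and of flavin-dependent enzymes that use its product. All 12 were tested, with a median of -0.04. Of these, limma called 2 higher and 2 lower in KO, beside 7.53% and 8.94% of all genes tested. The methods' t-test called 3, beside 9.83% of all genes. Slc52a2, a riboflavin transporter, had a log2 level of 13.36 ± 0.40 in WT and 12.30 ± 0.20 in KO (SD, n = 4; adjusted p = 0.0171 in limma). Rfk, the riboflavin kinase that makes the substrate of FAD synthase, was 12.67 ± 0.22 in WT and 11.95 ± 0.24 in KO (SD, n = 4; adjusted p = 0.0233 in limma). Both fell, as Flad1 did. Etfdh, an FAD-dependent carrier of electrons from fatty acid oxidation, rose from 12.01 ± 0.24 to 12.80 ± 0.14 (SD, n = 4; adjusted p = 0.0149 in limma).

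Cks1b, the cyclin-dependent kinase subunit, was read at 12.30, 12.70, 12.73 and 12.29 in WT1 to WT4 and at 11.95, 11.95, 12.23 and 12.03 in KO1 to KO4. The highest KO array, KO3, lay just below the lowest WT array, WT4. The difference of -0.47 (95% interval -0.79 to -0.15) had an adjusted p of 0.0541 in limma and of 0.0479 with the replicate block. Without WT1 the adjusted p was 0.0399, and without WT4 it was 0.0495. Over all alternatives it ran from 0.0399 to 0.136. The genotypes differed by 1.38-fold.

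Of 10 genes that work with Cks1b in the cell cycle, 8 were tested, with a median difference of -0.65. Of these, 6 had values below 0, beside 52.4% of all genes tested, of which 8.94% were called lower. The methods' t-test called 2 of the 8, beside 9.83% of all genes. Ccnb1, which encodes the mitotic cyclin B1, was the 1 that passed in the main test, with 9.80 ± 0.81 in WT and 7.59 ± 0.62 in KO (SD, n = 4; adjusted p = 0.0183 in limma). Cks2, the paralog of Cks1b elsewhere in the genome, differed by -0.53 (adjusted p = 0.291 in limma). The gland is a bulk tissue, in which fewer cells of a type and less RNA per cell cannot be told apart.

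The ephrin-A ligand genes had higher values in KO without passing the threshold. Efna1 read 8.58, 7.31, 8.27 and 8.06 in WT1 to WT4 and 9.15, 8.77, 8.65 and 9.08 in KO1 to KO4. All KO arrays exceeded all WT arrays, with WT2 the lowest of the WT arrays. The difference of 0.86 (95% interval 0.26 to 1.45) had an adjusted p of 0.0549 in limma and of 0.0378 with the replicate block. Without WT1 the difference was 1.03 and its adjusted p was 0.0283, and without WT2 they were 0.61 and 0.0853. Over all alternatives the adjusted p ran from 0.0283 to 0.126.

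Efna4 read 7.77, 7.53, 7.49 and 7.40 in WT and 7.87, 7.94, 7.81 and 8.0 in KO. The gap between the highest WT array and the lowest KO array was narrow. The difference of 0.36 (95% interval 0.11 to 0.61) had an adjusted p of 0.0566 in limma, of 0.0488 after scaling to the 75th percentile, and of 0.0826 with the replicate block. Over all alternatives it ran from 0.0269, without WT1, to 0.127, without WT2. WT1 was the highest WT array for both ephrins.

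Efna5, an ephrin-A gene elsewhere in the genome, was higher in KO, with 9.92 ± 0.72 in WT and 11.74 ± 0.44 in KO (SD, n = 4; adjusted p = 0.0189 in limma). It was one of 15 tested paralogs of the 19 listed, of which 1 rose and 1 fell, and 1 passed by the methods' t-test. Over all genes tested, limma called 7.53% higher and 8.94% lower in KO, and the methods' t-test called 9.83%. Of 9 Eph receptors of the A class, 5 were tested and limma called 0, with 1 at an unadjusted p under 0.05 and 0 by the methods' t-test. That receptor was Epha4, with a difference of 0.83 (adjusted p = 0.0541 in limma), named after its value was seen.

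Adam15, Shc1 and Pygo2 showed overlapping genotypes. The brighter Adam15 probe (A_51_P291815) read 11.74, 11.84, 11.91 and 11.50 in WT and 11.67, 11.60, 11.78 and 11.48 in KO, a difference of -0.11 (95% interval -0.39 to 0.16). Its other probe (A_52_P362670) read between 6.85 and 7.42 in WT and between 6.72 and 7.15 in KO, a difference of -0.13 (95% interval -0.47 to 0.22). Neither probe separated the genotypes.

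Shc1 read 8.53, 8.60, 8.78 and 8.43 in WT and 8.58, 8.47, 8.69 and 8.31 in KO. The difference of -0.07 (95% interval -0.35 to 0.21) had an adjusted p of 0.702 in limma. The Shc1 start nearest to Cks1b shares its upstream bases with Cks1b, while a further Shc1 start lies away from them. Which start the measured RNA came from is not known, and whether the responses of Shc1 and Cks1b differ was not tested. Of 12 receptors and partners of Shc1, all tested, 4 were higher in KO and 0 lower, with a median difference of 0.32, and the methods' t-test called 2. Over all genes limma called 7.53% higher, and the methods' t-test called 9.83% in either direction. Among them Erbb2, a receptor of the EGF family, rose from 9.0 ± 0.23 to 9.87 ± 0.26, Egfr from 10.50 ± 0.18 to 11.09 ± 0.12, and Igf1r from 8.89 ± 0.45 to 10.02 ± 0.34 (SD, n = 4; adjusted p = 0.0171, 0.0196 and 0.0236 in limma).

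Pygo2 read 9.77, 9.43, 9.65 and 9.25 in WT and 9.69, 9.53, 9.94 and 9.56 in KO. The difference of 0.16 (95% interval -0.18 to 0.49) had an adjusted p of 0.473 in limma. Of 9 genes listed with it in Wnt signalling, 7 were tested and all 7 had values above 0, with a median of 0.28. Axin2, a target gene of the pathway, was the 1 that passed, with 5.17 ± 0.37 in WT and 5.94 ± 0.27 in KO (SD, n = 4; adjusted p = 0.0396 in limma). The methods' t-test called 0 of the 7, beside 9.83% of all genes. Among the 14135 genes tested, 6731 had values above 0, and limma called 7.53% higher.

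**Figure D2:**
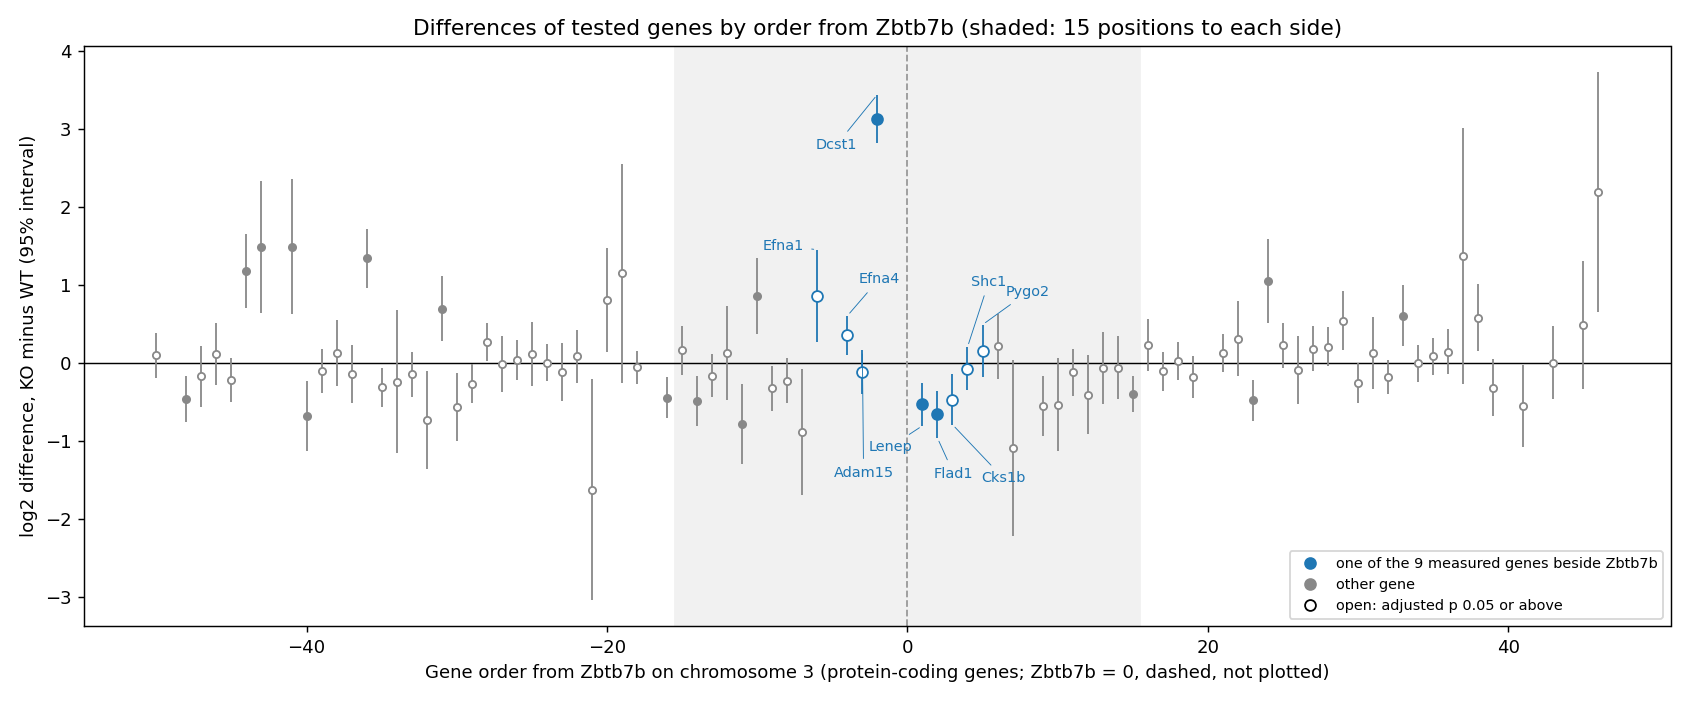
Log2 difference, KO minus WT, with its 95% interval (vertical axis) by gene order from Zbtb7b (horizontal axis, protein-coding genes). Blue marks the genes beside Zbtb7b, grey the other genes tested, and open circles an adjusted p of 0.05 or above. Dcst1, at -2, stands at 3.14, and no other gene within 15 positions exceeds 0.86.

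The window around Zbtb7b was then widened. Of the 30 protein-coding genes at 1 to 15 positions on either side, 27 were tested and 7 passed, 2 higher and 5 lower in KO. At 16 to 50 positions, 11 of 59 tested genes (18.6%) passed, 7 higher and 4 lower. Over the rest of chromosome 3 the share was 16.8% of 573 genes, and over the other chromosomes 16.5% of 13180. Without the named genes, 4 of the 18 others within 15 positions passed (22.2%). With the replicate block 11 of the 27 passed, beside 19.6% of all genes. The count was 2 without WT2, WT3 or KO2, when 5.52%, 6.95% and 6.69% of all genes passed. It was 4 without KO1 and 1 without KO3, beside 5.35% and 3.64% of all genes. Without WT1, WT4 or KO4 it was 9, 7 and 5, beside 21.7%, 12.9% and 16.1%.

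Among those other genes were Muc1 and Trim46 on the side of Dcst1, and Hax1 at the far end of the opposite side. Muc1, an apical mucin of glandular epithelium, read 11.10, 10.97, 10.94 and 11.61 in WT and 10.84, 9.90, 10.46 and 10.29 in KO, a fall of 0.78 (adjusted p = 0.0466 in limma). Trim46, a microtubule-binding TRIM protein of neurons, was the other gene that rose within the window, by 0.86 (adjusted p = 0.0327 in limma). Hax1, a mitochondrial protein, fell by 0.39 (adjusted p = 0.0363 in limma) with no overlap.

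On the Lenep side, 12 of the 14 tested genes within 15 positions had values below 0, with a median of -0.40 and 3 called, all lower. Over all genes tested, 52.4% had values below 0 and 8.94% were called lower. On the Dcst1 side 7 of 13 had values below 0, with a median of -0.11, and 2 were called in each direction. The difference between the sides was not tested. The other genes of the window, those neither called nor among the 10, ran from -1.09 for Pmvk to 0.22 for Pbxip1.

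**Figure D3:**
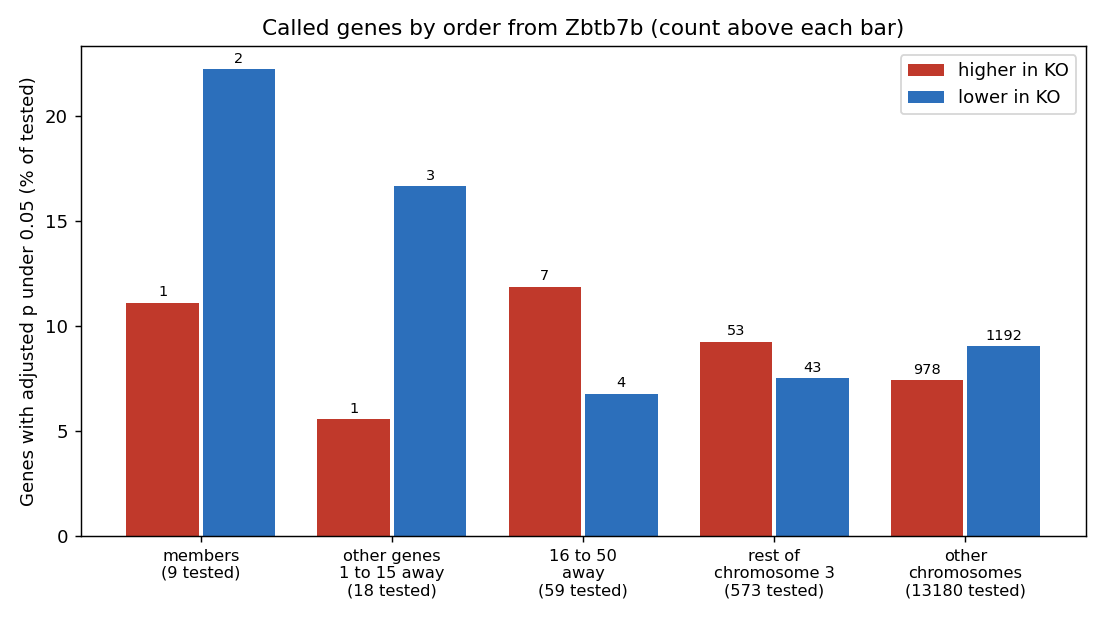
Share of tested genes with an adjusted p under 0.05 (vertical axis, percent) that were higher (red) or lower (blue) in KO, for the 9 genes and for genes at growing distance in gene order from Zbtb7b. Counts stand above the bars. The 2 groups nearest to Zbtb7b rest on 9 and 18 genes, and the others on 59 or more.

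Marker genes of some cell types also differed between genotypes. Of all genes tested, limma called 7.53% higher and 8.94% lower in KO. Of 8 luminal epithelial genes 4 were higher in KO, with a summed log2 level of 17.77 to 18.11 in WT and 18.15 to 18.37 in KO. Elf5 was the 1 luminal gene below 0, with a difference of -0.35 (adjusted p = 0.107 in limma). Of 6 neutrophil genes 3 were higher, with sums of 16.04 to 16.62 and 17.37 to 18.04. The brightest of them was Ltf, lactoferrin, which mammary epithelium also makes, at 16.27 in WT and 17.58 in KO, while Csf3r differed by 0.08 (adjusted p = 0.861 in limma) and S100a8 and S100a9 did not pass. The other called neutrophil genes were Camp and Ngp, with means of 1.95 and 2.46 in WT and 6.69 and 6.43 in KO. These WT means lay below the lowest signal well above background on every WT array (2.93 to 4.03). Both genes entered the test only through the KO arrays. Of 8 adipocyte genes 2 were higher, with sums of 18.13 to 18.62 and 18.63 to 19.11. Lep and Pparg lay below 0, at -0.73 and -0.05 (adjusted p = 0.370 and 0.754 in limma). Of 6 T cell genes 1, Cd3e, was lower, with sums of 8.87 to 10.27 and 8.93 to 9.34, and the probe of Cd4 did not pass the filter. None of the basal, endothelial and macrophage genes listed passed in limma, of 6, 6 and 5 tested, nor did any by the methods' t-test. By the methods' t-test, which called 9.83% of all genes, 1 luminal, 3 neutrophil, 0 adipocyte and 0 T cell genes passed. Their part in the differences of the genes beside Zbtb7b was not tested.

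**Figure D4:**
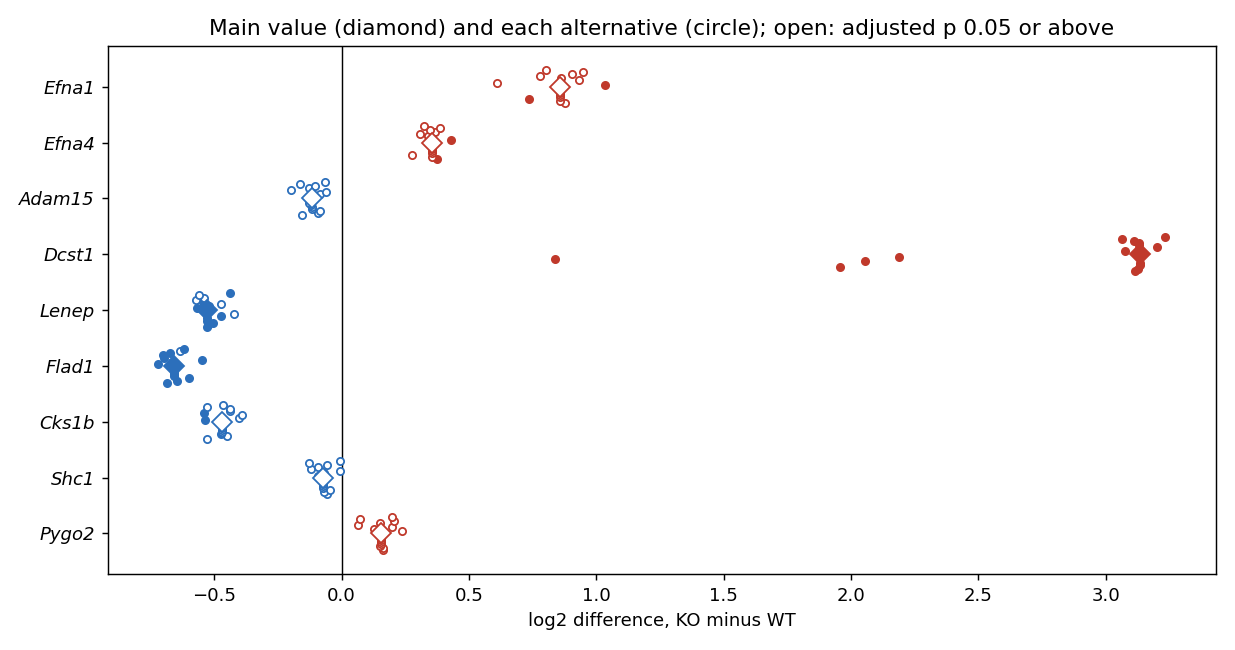
Log2 difference, KO minus WT (horizontal axis), of each of the 9 genes in the main analysis (diamond) and under each alternative (circles), higher in red and lower in blue. Filled marks have an adjusted p under 0.05. No gene changed sides of 0, and all marks of Dcst1 are filled.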

How the data were processed

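Mammary gland RNA of 4 WT and 4 KO dams was hybridized to one-colour Agilent 4x44K mouse arrays. The authors deposited processed intensity values of Agilent Feature Extraction 10.7, background-subtracted within each array and not normalized between arrays, with flags for outlier, saturated and dim spots. The log2 table that the authors deposited had been quantile-normalized in GeneSpring and served as an alternative.

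Log2 intensities of non-control spots were quantile-normalized with limma 3.58.1 in R 4.3.3. Outlier spots (64 to 100 per array) were dropped and spots of a probe averaged. Of 41174 probes, 27479 matched a gene symbol by accession in a RefSeq table of GRCm38.p6. The array design names mm9, so only gene symbols and gene order were taken from that table. The coordinates printed belong to the upstream sequences of the RefSeq promoter table, also of GRCm38.p6, and locate no probe. Probes were kept if 1 genotype or both had all 4 arrays well above background, and the brightest probe of each gene was tested with limma and Benjamini-Hochberg adjustment over 14135 genes. Other probes were tested over 27651 probes. Where a genotype was not well above background on any array, the fold is a limit against the higher of the probe's own signal and the lowest signal well above background on that array. The methods' two-tailed t-test was an alternative. The number of arrays limits the precision. Only the limma test was tried on simulated data, drawn independently for each gene and array. The steps before it were not simulated.

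WT and KO arrays with the same replicate number deviated together from their genotype means (r = 0.22, 0.16, 0.30 and 0.28). The numbers may therefore pair the samples, but the main test did not use them. The replicate block was run as an alternative, under which 5 of the 9 genes passed instead of 3. The labels do not say what arrays of the same number share.

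Members, lists and tests were chosen with earlier results of these data known. Named genes are all members and probes, called genes within 15 positions (1 is not reported here), up to 3 called genes of each partner list with the smallest p, and the 5 genes most like the member with the smallest p. Dcstamp, Cks2, Epha4, Pmvk, Pbxip1 and genes of the marker lists were named outside this rule.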

Additional observations from a re-analysis of the deposited data

How the results depend on the processing

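The difference of each of the 9 genes kept its direction under every alternative run. Dcst1 passed the threshold under all 18, between 0.84 and 3.23 on the log2 scale. Flad1 passed under 16 of 17 and Lenep under 11 of 17. Cks1b gained the call under 4, Efna1 under 3 and Efna4 under 2. Adam15, Shc1 and Pygo2 passed under none of 17. With the replicate block, 5 of the 9 genes passed instead of 3, 11 nearby genes instead of 7, and 2764 of all genes (19.6%) instead of 2329 (16.5%). The block changed no other call on a gene beside Zbtb7b. A normexp background correction on the median signal also gave 5 genes, when 2259 of all genes passed. It was chosen after seeing the data, because no mean signal column was present for the planned one. With no filter on dim probes 4 nearby genes passed, and 4 by the methods' t-test, which called 1389 of all genes. Without that filter 28 nearby genes were tested, and 1766 of all 18717 genes passed (9.44%). Leaving out single arrays gave 1 to 6 of the 9 genes, 1 to 9 nearby genes and 515 to 3070 of all genes. The lower counts of all genes came without WT2 (780), WT3 (983), KO1 (756), KO2 (946) and KO3 (515). The cause was not tested. No scaling moved the median difference of all genes by 0.1 or more. All 13 probes were well above background on all 8 arrays, but the WT signal of Dcst1 was low, and its difference was 1.96 under the normexp correction instead of 3.14.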
